A study of Gallus gallus with 9 samples.

Results

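Genes whose transcripts moved alike after removal of the neural retina, with or without added FGF2, were described in the retinal pigment epithelium (RPE) of White Leghorn chick embryos at embryonic day 4. The 6 injured libraries were set against the 3 intact ones. A gene was said to move alike when it was called for injured against intact RPE, lay at least 1 log2 unit from RPE in the same direction in each injured group, and differed by less than 1 log2 unit between these groups. Of 16635 genes in the table, 16535 had a summed normalized count of at least 20 and were tested, 147 were called, and 93 of those moved alike, 59 of them higher and 34 lower than in intact RPE.

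Each library came from the RPE of 1 embryo, cut from cryosections by laser capture, and each group had 3 embryos. The RPE group was uninjured and carried no bead. The t-rRPE group (transiently reprogrammed RPE) was collected 6 h after retinectomy with no added factor. The rRPE group (reprogrammed RPE) was collected at the same 6 h, after a bead soaked in FGF2, a fibroblast growth factor, had been placed in the emptied eye cup, and only RPE next to the bead was captured there. No allele, transgene or other agent separates the groups. No sham-operated or 6 h uninjured group is described, so the surgery, the loss of the retina and the elapsed time cannot be told apart.

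The RPE is a pigmented layer behind the neural retina that takes up vitamin A, keeps its own differentiated state through factors such as MITF, and rests on a basement membrane facing the choroidal vessels. In the early chick embryo it can give rise to a new neural retina after retinectomy when FGF2 is supplied. Without FGF2, the study describes reprogramming as stalled in its first phase. Tissue injury in general brings in early transcription factors of the AP-1 family, signaling from gp130 cytokine receptors through STAT3, changes in matrix proteins, and changes in cell cycle genes.

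Values are normalized counts, that is, reads on a gene divided by 1 size factor per library, with 1 read worth 0.768 to 1.303 normalized counts. Libraries held 26167206 to 45563924 reads on genes. The labeled tissue held its defining transcripts in each library, with *PMEL* at 62859 to 119135, *DCT* at 43855 to 84903 and *TYR* at 47336 to 87215. *GAPDH* and *SDHA*, taken as checks, had log2 fold changes of 0.24 and -0.09 (limma, adjusted p = 0.601 and 0.848). Transcripts of the W chromosome, which female birds carry and males lack, were not balanced. *HINTW* stood at 128872, 102583 and 106840 in RPE and at 147356 in t-rRPE replicate 1, and at 0 in t-rRPE replicates 2 and 3 and in all rRPE libraries. The 503 tested genes matched by symbol to chromosome Z, of which males have an extra copy, had a median log2 fold change of 0.55 for injured against intact RPE (0.39 in t-rRPE and 0.66 in rRPE), against -0.02 for the 10349 matched to another chromosome. Embryo sex and injury therefore cannot be told apart in rRPE, while t-rRPE replicate 1 carried W transcripts as the RPE libraries did.

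Injured and intact RPE differed at 147 genes, 97 higher and 50 lower, by limma with Benjamini-Hochberg adjustment (called at an adjusted p no higher than 0.05 with a change of 1 log2 unit or more). These are 0.889% of the genes tested (0.587% higher and 0.302% lower). Fold changes are on the log2(normalized count + 1) scale, and each is the mean of the 2 injured groups minus RPE, with its standard error (SE). This scale understates the change of genes at or near 0 throughout a group. Where only 1 library of a group is at 0, it can instead enlarge the change. For *ATF3*, with RPE replicate 2 at 0, the log2 fold change of 5.54 ran from 3.57 to 6.89 with 1 library left out. Of the 16535 genes tested, 8353 had a positive and 8182 a negative log2 fold change. At an unadjusted p of 0.05 there were 1159 higher and 1002 lower genes. All 6 injured libraries lay above all 3 intact ones for 90 of the 97 higher genes, and below them for 48 of the 50 lower genes, where 2.84% and 3.3% of all genes tested did so (6.14% in either direction). The calls were made on these same values, so the lack of overlap largely follows from the selection and lends them no support. No called gene had opposite signs in t-rRPE and rRPE. Both injured groups are set against the same RPE libraries, so this count was in part fixed by the design. In bulk samples of this kind, fewer cells of a type and less RNA per cell cannot be told apart. A limma fit without the trend of variance on mean level called 50 higher and 33 lower genes, and edgeR's quasi-likelihood test on recovered whole reads called 48 and 36. Fits with 1 library left out called 23 to 84 higher and 11 to 78 lower genes, some of them not among the 147. The fewest, 23 and 11, were called without RPE replicate 2. Only without t-rRPE replicate 2 did both counts stay within 1.5 times the full ones (82 and 50). Of the 147, the fewest called again were 26, without RPE replicate 2, and the most 87, without t-rRPE replicate 1. All 9 such fits kept 16 of the 97 higher and 7 of the 50 lower genes, and 6 and 7 of these moved alike.

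The 93 genes that moved alike make up 0.562% of those tested, 0.357% on the higher side and 0.206% on the lower side. Their absolute log2 fold changes ran from 1.07 to 8.28 (median 2.21) for the 59 higher genes and from 1.06 to 6.97 (median 2.18) for the 34 lower genes. The plot of both injured groups against RPE places them between the dotted lines. Closeness of the 2 estimates does not show that the groups were equal, and the 95% interval of the difference between rRPE and t-rRPE stayed within 1 log2 unit on either side of 0 for 13 of the 59 and 10 of the 34. In t-rRPE replicate 1, the injured library with W transcripts, all 59 and all 34 lay beyond the 3 RPE libraries in the direction of the call, 52 and 32 of them by at least 1 log2 unit from the RPE mean, although this library also entered the calls. With genes matched to Z or W left out, 53 higher and 34 lower genes moved alike, of which 14 and 9 could be matched to no chromosome. A fit with the *HINTW* level as a covariate was added after the values were seen. Its sex term is set mostly by t-rRPE replicate 1 against replicates 2 and 3, so it leans on the same library and gives no separate check on sex. With this covariate, 3 of the 59 (*STRA6*, *BTG2* and *DMRT3*) and 3 of the 34 (*HSPA5*, *RRM2* and *DGUOK*) passed the same call. In that fit 54 of the 59 and 33 of the 34 had a log2 fold change of at least 1 in the same direction, and those that fell short were *STAT3*, *JUN*, *NOV*, *CD47* and *MSH3* (0.67 to 0.98) and *FDFT1* (-0.76).

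**Figure D1:**
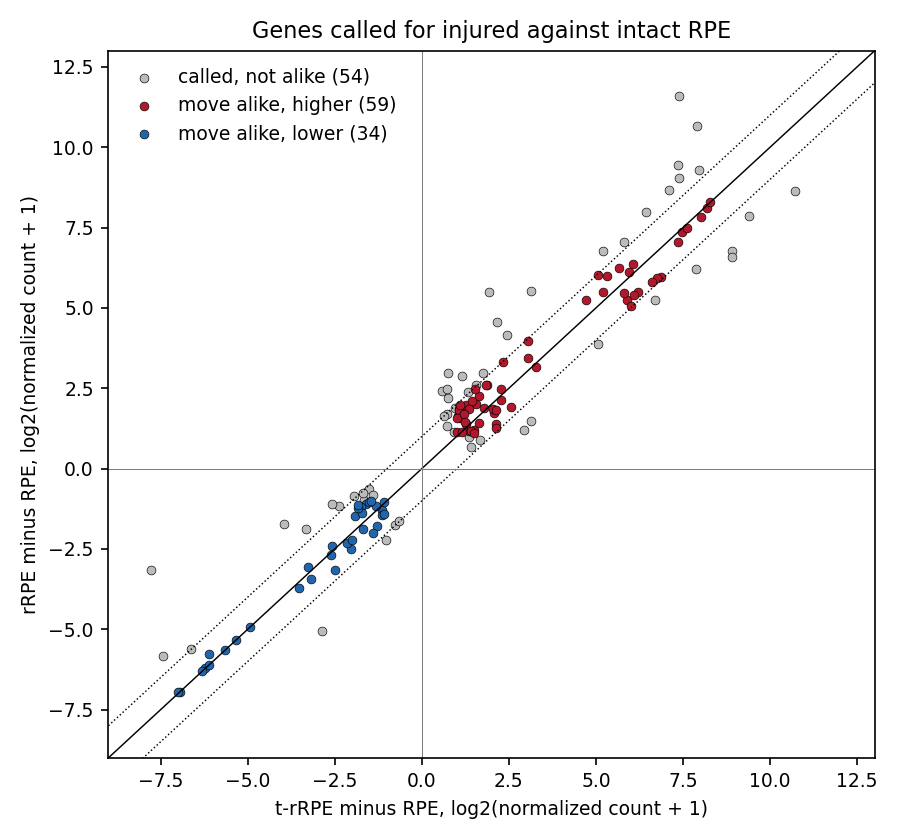
Log2 fold change against RPE in t-rRPE (x axis) and rRPE (y axis) for the 147 called genes, on the log2(normalized count + 1) scale. Each point is 1 gene, red and blue points are the 59 higher and 34 lower genes that moved alike, the solid line marks equal values and the dotted lines a difference of 1, and both axes share the 3 RPE libraries.

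Several of the named genes with small p among those higher alike had reads in each intact library. *STRA6*, the cell surface receptor that takes up retinol, stood at 4403, 3483 and 3081 across RPE, 19234, 12667 and 14802 across t-rRPE and 10603, 11291 and 14389.9 across rRPE (log2 fold change 1.91, SE 0.17, adjusted p = 0.000863). *BTG2*, an antiproliferative cofactor, stood at 2009, 1732 and 1387 across RPE, 6142, 4682 and 4246 across t-rRPE and 9157, 6519.7 and 5416 across rRPE (1.79, SE 0.20, adjusted p = 0.00296). *ANGPTL4*, a secreted inhibitor of lipoprotein lipase, stood at 2366, 1941 and 2134 across RPE, 5799, 5514 and 6928 across t-rRPE and 6273, 4855 and 3841 across rRPE (1.35, SE 0.18, adjusted p = 0.00595). Neither injured group overlapped RPE for these 3 genes, which the rule for naming genes by smallest p required. The difference of rRPE from t-rRPE was -0.36 (95% interval -0.79 to 0.08) for *STRA6*, 0.47 (95% interval -0.05 to 0.99) for *BTG2* and -0.31 (95% interval -0.75 to 0.14) for *ANGPTL4*, each interval within 1 log2 unit of 0.

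Larger steps were seen in *CHST1* and *RERG*, which had lower intact levels than these 3 genes. *CHST1*, a sulfotransferase of keratan sulfate, rose from 490.1, 182 and 290.5 to 2437, 1761 and 3365 across t-rRPE and 5179, 3679 and 1718 across rRPE (3.23, SE 0.39, adjusted p = 0.00399). *RERG*, a small GTPase related to Ras, rose from 96.1, 32.9 and 43.8 to 508, 269.7 and 609 across t-rRPE and 659, 879 and 968 across rRPE (3.51, SE 0.49, adjusted p = 0.00828), with the rRPE libraries the highest. *COL9A2*, a chain of collagen IX, had the narrowest interval of these for the difference between injured groups, 0.13 (95% interval -0.25 to 0.51), with 3535, 2579.5 and 3084 across RPE, 6697, 5209 and 6514 across t-rRPE and 7015, 6346 and 6681 across rRPE (1.07, SE 0.15, adjusted p = 0.00827). Of the remaining genes in this set, log2 fold changes were 1.33 for *GLIPR2*, a Golgi-associated protein, 1.95 for *SLCO4A1*, an organic anion transporter, 1.96 for *CLIP4*, a microtubule-binding protein, 1.46 for *NINJ1*, a membrane protein of adhesion and membrane rupture, and 1.54 for *FOCAD*, a focal adhesion protein whose symbol matched chromosome Z. Their adjusted p ran from 0.0101 to 0.0138 in limma. In *NINJ1*, *FOCAD* and *GLIPR2* the interval of the difference lay above 0, at 0.24 to 1.35, 0.12 to 1.33 and 0.10 to 1.07, toward a higher level in rRPE. Of the 11 calls named here, the number lost was 3, 10 and 9 without RPE replicate 1, 2 or 3, 1, 0 and 5 without t-rRPE replicate 1, 2 or 3, and 5, 4 and 5 without rRPE replicate 1, 2 or 3 (limma adjusted p 0.0538 to 0.124), and 7 were lost without the trend (0.0596 to 0.0984).

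**Figure D2:**
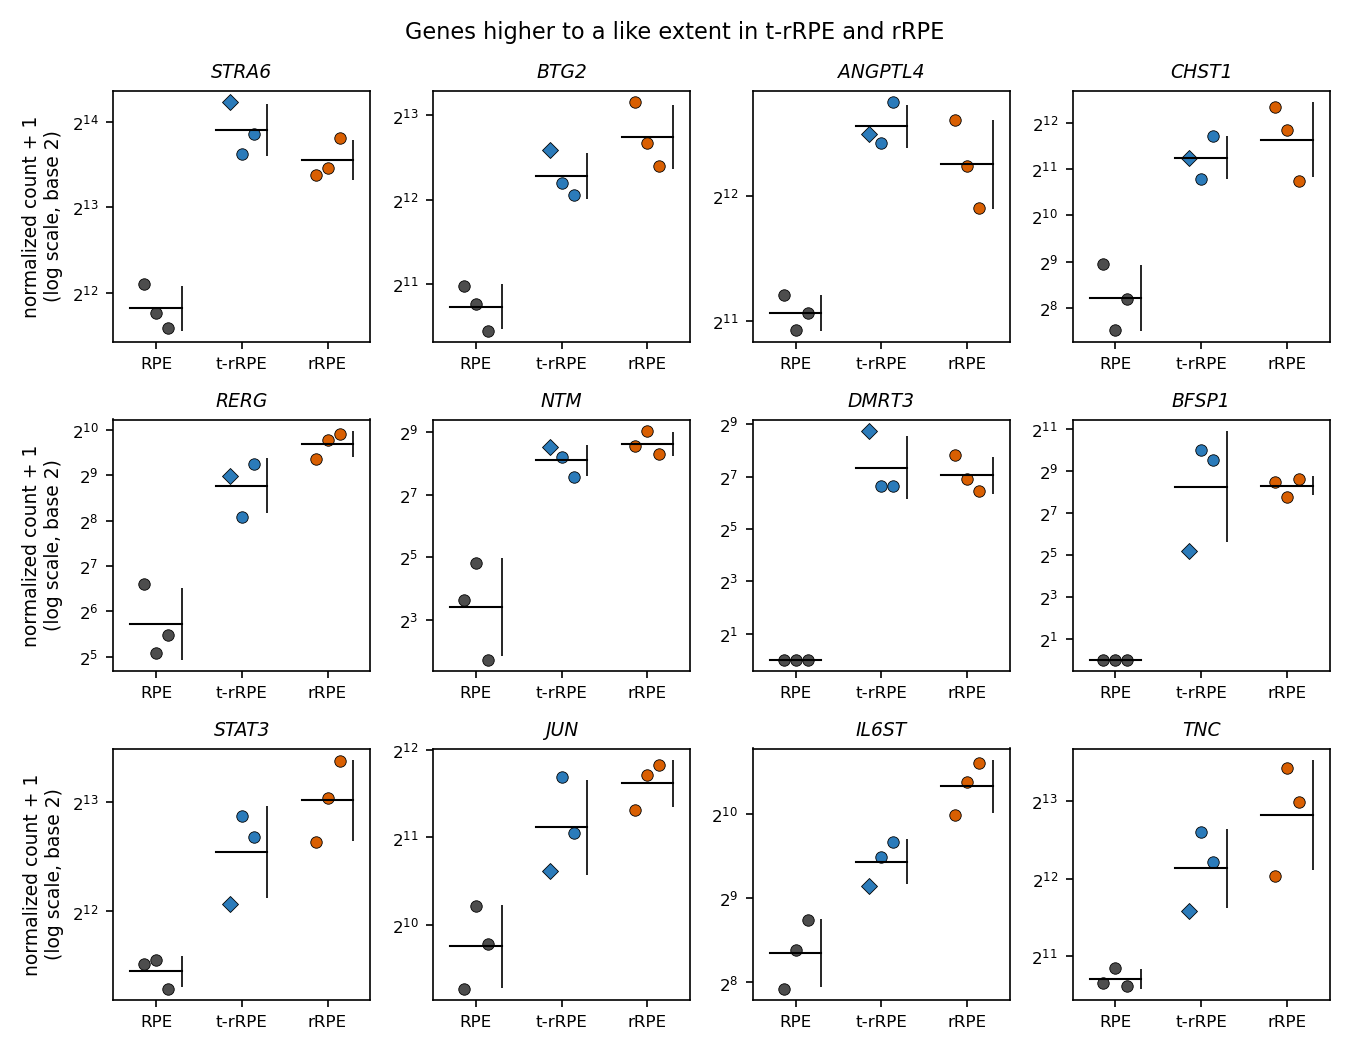
Normalized count + 1 (log scale, base 2) in each library for 12 genes higher alike, with RPE in gray, t-rRPE in blue and rRPE in orange. Horizontal lines are means and vertical bars 1 SD to either side, both of log2(normalized count + 1) with n = 3, and the diamond is t-rRPE replicate 1. All injured points lie above all RPE points of the same gene, which the naming rule required of genes picked by smallest p or largest change.

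Another set of genes had few or no reads in RPE and was detected in all 6 injured libraries. *BFSP1* (filensin, of the beaded filament of lens fibers) and *CRYBA4* (a beta crystallin) are lens transcripts. *BFSP1* was at 0 in RPE, 35.8, 1041 and 749 across t-rRPE and 358, 218 and 397 across rRPE, at least 186-fold higher as the injured mean over 3 reads per RPE library (adjusted p = 0.0072). The lowest injured value was that of t-rRPE replicate 1, both injured groups overlapped, and the interval of their difference ran from -2.81 to 2.89. *CRYBA4* was at 0 in RPE, 123, 62.5 and 36.5 across t-rRPE and 138, 90.9 and 42.1 across rRPE, at least 32.7-fold higher (adjusted p = 0.0167). *DMRT3*, a DM-domain transcription factor whose symbol matched chromosome Z, was at 0 in RPE, 428, 99.9 and 97.8 across t-rRPE and 225, 120.1 and 85.2 across rRPE, at least 70.1-fold higher (adjusted p = 0.0072). Its highest value was in t-rRPE replicate 1, the injured library with W transcripts.

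Several neural surface genes followed the same course. *CHL1*, an L1-type adhesion molecule, was at 0 in RPE, 31.5, 637 and 271 across t-rRPE and 384, 133 and 83.2 across rRPE, at least 102-fold higher (adjusted p = 0.0134). *NTM*, a neural adhesion protein of the IgLON family, rose from 11.5, 27.4 and 2.31 to 372, 295 and 188 across t-rRPE and 379.7, 526 and 312 across rRPE (4.97, SE 0.77, adjusted p = 0.0138). *KIAA0319*, a transmembrane protein studied in neuronal migration in rodents, rose from 12.5, 0 and 3.07 to 184, 140.0 and 441 across t-rRPE and 211, 144 and 94.5 across rRPE (5.56, SE 1.00, adjusted p = 0.0275). Closeness between the injured groups is loosely bounded for these genes, with intervals of the difference of -3.02 to 2.76 for *CHL1* and -1.42 to 2.48 for *NTM*. Of these 6 calls from *BFSP1* to *KIAA0319*, the number lost was 3, 4 and 4 without RPE replicate 1, 2 or 3, 1, 1 and 3 without t-rRPE replicate 1, 2 or 3, and 4, 3 and 4 without rRPE replicate 1, 2 or 3 (limma adjusted p 0.0501 to 0.135). edgeR on recovered reads did not call *CRYBA4* and *KIAA0319* (adjusted p 0.0618 to 0.118).

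Other lens transcripts were higher beside *BFSP1* and *CRYBA4*. Of 24 lens markers tested, 21 had a positive log2 fold change and 8 were called higher, 2 of which moved alike, with a median of 3.31 against 0.01 over all genes tested. Over all 16535 genes tested, 8353 were positive and 0.587% were called higher. Summed lens marker levels were 8627 to 9647 in RPE, 54018 to 417292 in t-rRPE and 28679 to 58144 in rRPE, and without *ASL1* 8497 to 9415, 14588 to 84319 and 11342 to 17275. Delta crystallin *ASL1*, a near-identical copy of *ASL2* with which it may share reads, dominated this sum, at 13.5, 129.8 and 232 across RPE, 39430.0, 332972 and 160226 across t-rRPE and 41516, 38876 and 17338 across rRPE, and *CRYAA*, an alpha crystallin, stood at 9.61, 64.9 and 8.45 across RPE, 2646, 21424 and 12730.1 across t-rRPE and 2150.2, 3103 and 1256 across rRPE. Both were highest in t-rRPE replicate 2 and were called (9.68, SE 0.82, adjusted p = 0.000807 and 7.83, SE 0.73, adjusted p = 0.000874), but the difference of rRPE from t-rRPE was -2.08 and -2.14, past the limit for moving alike. *ASL2*, *CRYBA2* and *CRYAB*, also crystallin genes, were called with t-rRPE the higher group, and *MAFA*, a transcription factor of lens fibers, with rRPE the higher one. No lens marker was at 0 throughout t-rRPE, 1 was in rRPE and 5 were in RPE. Whether lens cells or their RNA reached the captured RPE was not tested.

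*STAT3*, *IL6ST*, *JUN*, *ATF3* and *TGFB2* were higher alike, while few other members of their lists were called. *STAT3*, the transcription factor downstream of gp130 cytokine receptors, stood at 2928, 3008 and 2510.5 across RPE, 4299, 7513 and 6578 across t-rRPE and 6365, 8424 and 10596 across rRPE (1.32, SE 0.21, adjusted p = 0.0138). *IL6ST*, which encodes gp130 itself and matched chromosome Z, stood at 242, 332 and 426 across RPE, 564, 715 and 811 across t-rRPE and 1015, 1333 and 1556 across rRPE (1.53, SE 0.30, adjusted p = 0.0384). For both genes each injured library lay above all intact ones, and rRPE was above t-rRPE by 0.47 (95% interval -0.05 to 1.00) and 0.89 (95% interval 0.14 to 1.65). *JUN*, an AP-1 subunit, stood at 619, 1194 and 883 across RPE, 1565, 3303 and 2114 across t-rRPE and 2553, 3357 and 3623 across rRPE (1.61, SE 0.28, adjusted p = 0.0232), and *ATF3*, a stress-induced bZIP factor, at 35.6, 0 and 99.1 across RPE, 354, 535 and 703 across t-rRPE and 1266, 803 and 996 across rRPE (5.54, SE 1.14, adjusted p = 0.0485). All injured libraries lay above the intact ones for both genes. *TGFB2*, a secreted TGF-beta ligand, stood at 342, 271 and 142 across RPE, 801, 1476 and 1263 across t-rRPE and 837, 1882 and 725 across rRPE (2.21, SE 0.41, adjusted p = 0.0306), with injured groups close at -0.13 (95% interval -1.16 to 0.90).

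Of the 5 calls, the number lost was 5 without any 1 RPE library, 2, 5 and 5 without t-rRPE replicate 1, 2 or 3, and 4, 5 and 5 without rRPE replicate 1, 2 or 3 (limma adjusted p 0.052 to 0.209), and 5 were lost without the trend (0.0746 to 0.197). With the *HINTW* level as a covariate the log2 fold changes of *STAT3* and *JUN* were 0.75 and 0.98 (adjusted p = 0.368 and 0.447), and t-rRPE replicate 1 was the lowest injured library for *STAT3*, *IL6ST*, *JUN* and *ATF3*. edgeR did not call *IL6ST*, *ATF3* and *TGFB2* (adjusted p 0.0605 to 0.136), nor did limma call *IL6ST* with the injured libraries as 1 group (0.0855) or *ATF3* with an offset of 0.5 (0.0655).

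Within the list of 40 JAK-STAT and cytokine genes tested, 5 were called higher and none lower, 2 moved alike, and the median log2 fold change was 0.27. The 3 called genes that did not move alike were *SOCS3*, the feedback inhibitor induced by STAT3 (log2 fold change of 5.21 in t-rRPE and 6.77 in rRPE), and the chemokine genes *CXCL14* and *CCL4*, all farther from RPE in rRPE. The symbol *CCL4* stands on 2 rows of the table that may share reads, and 1 of them was called. Among 23 early response transcription factors, 4 were called higher and none lower. *JUN* and *ATF3* moved alike, while *FOS* had log2 fold changes of 2.15 in t-rRPE and 4.55 in rRPE and *MAFA* of 5.81 and 7.05. The median of this list was 0.38 in t-rRPE and 1.29 in rRPE. The MAPK feedback list of 24 genes, which restrain signaling by FGF receptors, had 1 called gene, *DUSP5*, and medians of 0.04 in t-rRPE and 1.03 in rRPE. Of 21 genes of growth arrest and DNA damage, 1 was called, *BTG2*, and 16 were positive, and of 32 genes of hypoxia and glycolysis 1 was called, *ANGPTL4*, and 22 were positive. Beside these lists, 0.587% of all genes tested were called higher and 0.302% lower, and 8353 of 16535 were positive.

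Matrix genes that moved alike lay in both directions. *TNC* (tenascin C) stood at 1603, 1846 and 1571 across RPE, 3071, 6214 and 4773 across t-rRPE and 4207, 11057 and 8178 across rRPE (1.77, SE 0.29, adjusted p = 0.0183). *COL6A2*, a chain of collagen VI, stood at 8.65, 0 and 15.4 across RPE, 181, 963 and 352 across t-rRPE and 303, 291 and 166 across rRPE (5.85, SE 0.99, adjusted p = 0.0198). *FREM1*, a basement membrane protein whose symbol matched chromosome Z, stood at 651, 368 and 194 across RPE, 1308, 1703 and 1732 across t-rRPE and 2193, 761 and 1271 across rRPE (1.98, SE 0.41, adjusted p = 0.0498). All injured libraries were above the intact ones for these genes. Against them *TIMP3*, an inhibitor of metalloproteinases held in Bruch's membrane, fell from 2976, 3614 and 4390.0 to 1102, 481 and 1337 across t-rRPE and 725, 916 and 716 across rRPE (-2.11, SE 0.31, adjusted p = 0.0116). *FN1* (fibronectin) fell from 6848, 6992 and 7305 to 3930.2, 2102 and 2224 across t-rRPE and 2529, 856 and 2526 across rRPE (-1.71, SE 0.33, adjusted p = 0.0395). The difference between injured groups was -0.19 (95% interval -0.98 to 0.60) for *TIMP3*, within 1 log2 unit of 0, and -0.58 (95% interval -1.43 to 0.27) for *FN1*, reaching past it.

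Of 47 matrix and matrix remodeling genes tested, 2 were called higher and 2 lower, with a median log2 fold change of -0.21, and of 29 basement membrane genes 2 were called higher, with a median of 0.05. Over all genes tested, 0.587% were called higher and 0.302% lower. At an unadjusted p of 0.05 in limma, 6 of the 29 were higher and 7 lower, where 1159 and 1002 of all 16535 genes tested were. All injured libraries lay above all intact ones in 3 of the 29 and below them in 4, against 2.84% and 3.3% of all genes tested. For the 5 matrix genes given with values, the number lost was 5 without any 1 RPE library, 3, 4 and 4 without t-rRPE replicate 1, 2 or 3, and 4, 4 and 5 without rRPE replicate 1, 2 or 3 (limma adjusted p 0.0508 to 0.267), and 5 were lost without the trend (0.0623 to 0.198). *FREM1* lay just inside the threshold, at an adjusted p of 0.0498, where *TMEM175* and *PLIN2* lay just outside at 0.0507. The collagen IV gene *COL4A1*, named after its values were seen, was lower without overlap and also lay just outside (-1.15, limma adjusted p = 0.0547). edgeR did not call *COL6A2*, *FREM1* and *FN1* (adjusted p 0.0552 to 0.0954), *FN1* was also not called with the injured libraries as 1 group (0.0537), and *FREM1* was not called in 5 further settings (up to 0.0556).

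*MITF*, the transcription factor that maintains RPE identity, fell alike. It stood at 3911, 5933 and 5855 across RPE, 1548, 2886 and 2094 across t-rRPE and 1441, 1908 and 1210.5 across rRPE (-1.53, SE 0.24, adjusted p = 0.014), with no overlap between injured and intact libraries and -0.50 (95% interval -1.11 to 0.11) between the injured groups. Pigment genes were not called with it. Of 31 tested genes of RPE identity and pigment, *MITF* was the 1 that was called, with 12 positive and 19 negative log2 fold changes and a median of -0.18 (0.05 in t-rRPE and -0.41 in rRPE). At an unadjusted p of 0.05 in limma, 6 of the 31 were higher and 5 lower, where 1159 and 1002 of all 16535 genes tested were. Summed levels of this list were 417357 to 470966 in RPE, 435784 to 562559 in t-rRPE and 328063 to 503982 in rRPE, and all groups overlapped.

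*HEY1* and *LFNG*, both tied to Notch signaling, fell alike as well. *HEY1*, a transcriptional repressor induced by Notch, stood at 2053, 2454 and 2796 across RPE, 651, 764 and 528 across t-rRPE and 937, 923 and 771 across rRPE (-1.69, SE 0.22, adjusted p = 0.00647). *LFNG* (lunatic fringe, which modifies Notch receptors) stood at 8312, 6046 and 6119 across RPE, 2512, 2484 and 2075 across t-rRPE and 2914, 4233 and 2812 across rRPE (-1.29, SE 0.18, adjusted p = 0.00923). In the wider list of 38 WNT, Notch and Hippo genes tested, these were the 2 called genes, both lower, and the median log2 fold change was -0.05. Over all genes tested, 0.302% were called lower. *NCAM1*, a neural cell adhesion molecule, fell from 5279, 5512 and 5434 to 2559, 3194 and 2061 across t-rRPE and 3007, 2549.6 and 2352 across rRPE (-1.06, SE 0.17, adjusted p = 0.0148), and its difference between injured groups was 0.03 (95% interval -0.40 to 0.46). Among the calls of *MITF*, *HEY1*, *LFNG* and *NCAM1*, the number lost was 2, 4 and 3 without RPE replicate 1, 2 or 3, 0, 0 and 2 without t-rRPE replicate 1, 2 or 3, and 2, 1 and 3 without rRPE replicate 1, 2 or 3 (limma adjusted p 0.0426 to 0.159, where those under 0.05 fell short of a log2 fold change of 1), and 3 were lost without the trend (0.08 to 0.115).

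**Figure D3:**
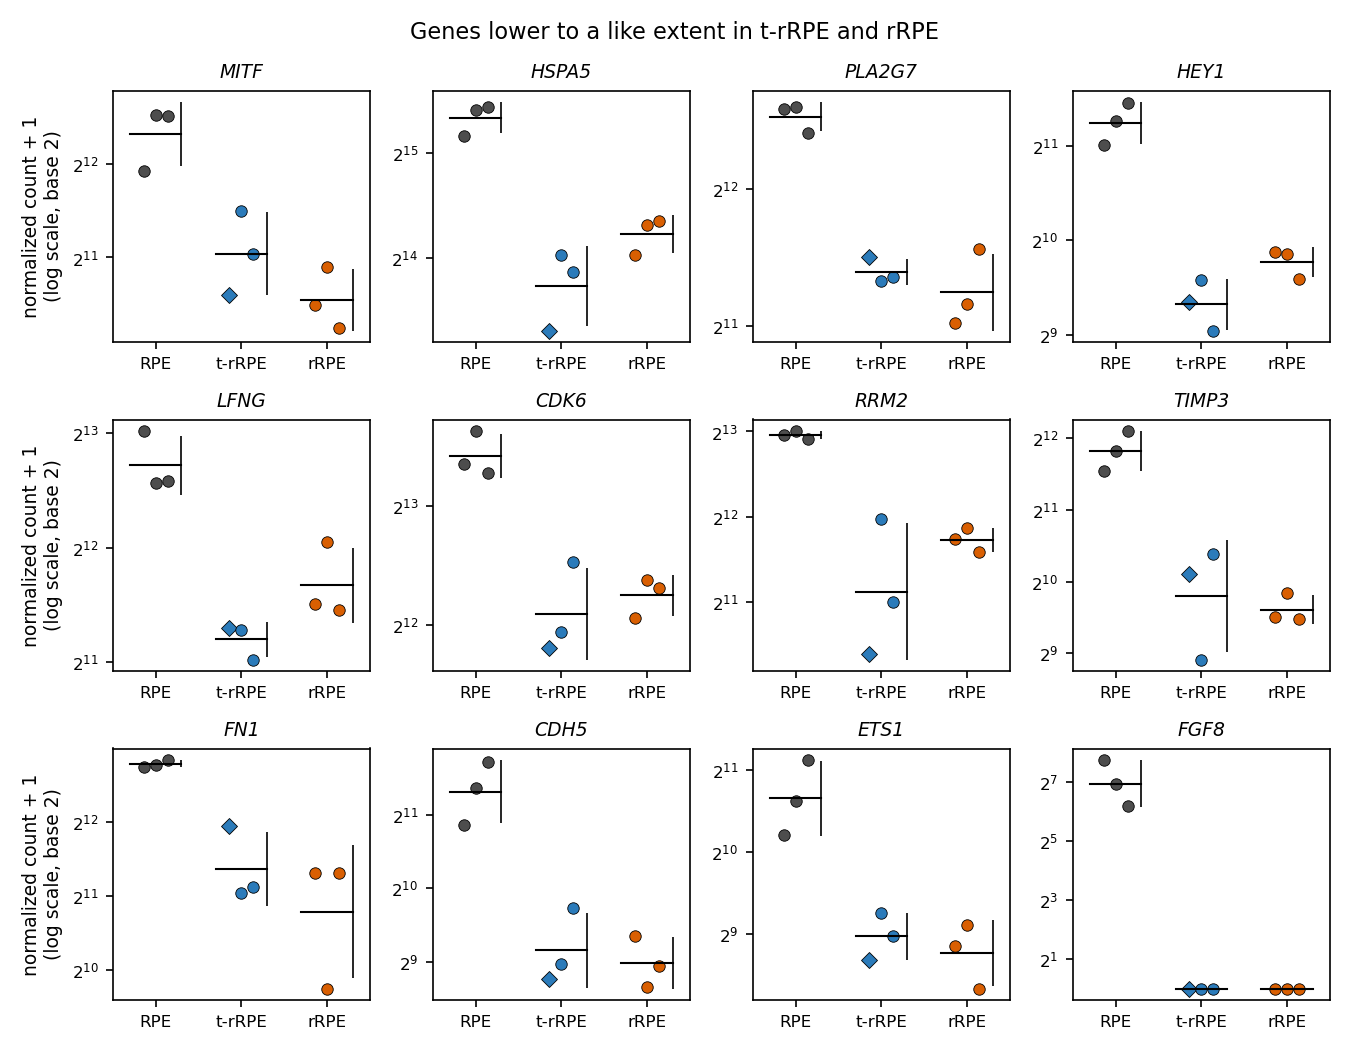
Normalized count + 1 (log scale, base 2) in each library for 12 genes lower alike, drawn as in the plot of higher genes. All injured points lie below all RPE points of the same gene, which the naming rule required of genes picked by smallest p or largest change. *FGF8* stands at a normalized count of 0 in the 6 injured libraries.

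The chaperone gene *HSPA5* (BiP, of the endoplasmic reticulum) had the smallest p of the genes with a symbol that were lower alike. It stood at 36628, 43246 and 44266 across RPE, 10141, 16684 and 14958 across t-rRPE and 16659.7, 20386 and 20853 across rRPE (-1.35, SE 0.16, adjusted p = 0.00296), and the difference of rRPE from t-rRPE was 0.49 (95% interval 0.10 to 0.89), toward the lower level in t-rRPE. Of 37 heat shock and protein folding genes tested, *HSPA5* and *HMOX1* were called lower and *CRYAB*, a small heat shock protein and lens crystallin, higher, with a median of -0.16. Over all genes tested, 0.302% were called lower and 0.587% higher. *PLA2G7*, which degrades platelet-activating factor, stood at 6119, 6194 and 5417 across RPE, 2899, 2562 and 2618 across t-rRPE and 2070.0, 2281 and 3014 across rRPE (-1.21, SE 0.16, adjusted p = 0.00647). *FDFT1* (squalene synthase) fell from 2730.1, 2613 and 2439.8 to 1246, 704 and 972 across t-rRPE and 1515, 1495 and 918 across rRPE (-1.24, SE 0.25, adjusted p = 0.0432), the 1 called gene of 24 in cholesterol synthesis, a list with a median of 0.01. For these 3 genes, the number lost was 1, 3 and 2 without RPE replicate 1, 2 or 3, 0, 1 and 1 without t-rRPE replicate 1, 2 or 3, and 1 without any 1 rRPE library (limma adjusted p 0.0636 to 0.206), and 3 were lost without the trend (0.0596 to 0.149). The adjusted p of *FDFT1* was 0.0619 with the injured libraries as 1 group, 0.0552 in edgeR, and 0.503 with the *HINTW* level as a covariate, where its log2 fold change was -0.76.

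*CDK6*, *RRM2*, *DGUOK* and *PCNT* fell alike, of which *CDK6* and *RRM2* belong to the cell cycle and replication lists. *CDK6*, a kinase of the G1 phase, stood at 10432, 12629 and 9911 across RPE, 3592, 3949.5 and 5926 across t-rRPE and 4270.0, 5333 and 5090.3 across rRPE (-1.24, SE 0.18, adjusted p = 0.00885), with 0.15 (95% interval -0.29 to 0.60) between injured groups. *RRM2*, the small subunit of ribonucleotide reductase, fell from 7959, 8227 and 7701 to 1339, 4026 and 2041 across t-rRPE and 3402, 3739 and 3067 across rRPE (-1.53, SE 0.27, adjusted p = 0.0261). The intact libraries were within a narrow range for *RRM2*, and t-rRPE replicate 1 was the lowest of all. *DGUOK*, a mitochondrial deoxyguanosine kinase, fell from 5598, 5645 and 6184 to 1132, 3009 and 1595 across t-rRPE and 2249, 2486 and 2022 across rRPE (-1.55, SE 0.26, adjusted p = 0.0187), and *PCNT* (pericentrin, of the centrosome) stood at 6121, 6099.9 and 4114 across RPE, 2093, 2404 and 2874 across t-rRPE and 1745, 2318 and 1841 across rRPE (-1.30, SE 0.19, adjusted p = 0.0117).

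In the list of 44 DNA replication and nucleotide supply genes tested, 43 had a negative log2 fold change, 21 at an unadjusted p of 0.05. In 16 of the 44 all injured libraries lay below all intact ones. Of all 16535 genes tested, 8182 were negative, 1002 at an unadjusted p of 0.05, and 546 (3.3%) lay below without overlap. The median of the list was -0.75 (-0.90 in t-rRPE and -0.61 in rRPE), against 0.01 over all genes. Called genes were 3, *RRM2*, *MCM2* and *PCNA*, all lower, where 0.302% of all genes tested were called lower. *MCM2*, of the replicative helicase, had log2 fold changes of -1.69 in t-rRPE and -0.75 in rRPE, and *PCNA*, the sliding clamp, had -1.41 and -0.82, so neither met the limit of 1 in rRPE. Of 22 G1 genes 20 were negative with *CDK6* called, and of 33 G2 and M phase genes 30 were negative and none was called by limma, with 4 lower at an unadjusted p of 0.05 and a median of -0.39. The smallest p of that list were those of *ANLN* and *AURKA*, and neither edgeR nor DESeq2 called a member. Of the calls of *CDK6*, *RRM2*, *PCNT* and *DGUOK*, the number lost was 4, 4 and 3 without RPE replicate 1, 2 or 3, 0, 0 and 2 without t-rRPE replicate 1, 2 or 3, and 4, 2 and 4 without rRPE replicate 1, 2 or 3 (limma adjusted p 0.059 to 0.214), and 4 were lost without the trend (0.0809 to 0.159).

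Of the endothelial markers, *CDH5*, *ETS1* and *FLI1* fell alike. *CDH5* (VE-cadherin, of endothelial junctions) stood at 1858, 2631 and 3366 across RPE, 433, 502 and 847 across t-rRPE and 654, 402 and 492 across rRPE (-2.24, SE 0.31, adjusted p = 0.00778). *ETS1*, a transcription factor of endothelium and neural crest, fell from 1185, 1584 and 2236 to 411, 609 and 502 across t-rRPE and 463, 554 and 321 across rRPE (-1.79, SE 0.31, adjusted p = 0.0228), and *FLI1*, a related factor, from 653, 1926 and 1014 to 112, 194 and 261 across t-rRPE and 80.2, 229 and 253 across rRPE (-2.65, SE 0.53, adjusted p = 0.0435). *CD34*, *CD248* and *APLN*, named after their values were seen as markers of vessels and perivascular cells in mammals, fell by 2.50, 2.84 and 1.24 on the log2 scale (adjusted p 0.0485, 0.0461 and 0.0301). No injured library overlapped the intact ones in any of these genes, and the difference of rRPE from t-rRPE ran from -0.66 for *CD248* to 0.16 for *CD34*.

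Of 20 endothelial markers tested, 17 were negative and 3 were called lower, with a median of -1.62 (-1.71 in t-rRPE and -1.52 in rRPE). Over all 16535 genes tested, 8182 were negative and 0.302% were called lower. For the endothelial markers, summed levels were 10479 to 20970 in RPE, 5673 to 8458 in t-rRPE and 7192 to 7578 in rRPE. *PECAM1*, a defining marker, had a log2 fold change of 0.05 and was not called, and no endothelial marker was at 0 throughout a group. Of 25 markers of periocular mesenchyme, 20 were negative and 1 was called lower, *PITX1*, a homeobox gene, which stood at 357, 874 and 692 across RPE, 48.8, 146 and 37.8 across t-rRPE and 51.8, 43.9 and 71.9 across rRPE (-3.31, SE 0.65, adjusted p = 0.0405). Their median was -1.93, while their summed levels overlapped between RPE and rRPE, at 23875 to 28184 in RPE, 19146 to 22198 in t-rRPE and 20907 to 24129 in rRPE. Erythroid markers, 13 of 14 negative with none called by limma, edgeR or DESeq2 and 2 at an unadjusted p of 0.05, summed to 381835 to 558129 in RPE, 217596 to 471943 in t-rRPE and 255912 to 617288 in rRPE. The part of neighboring tissue in these falls was not tested. Of the 7 vascular and mesenchymal calls given here, the number lost was 4, 7 and 7 without RPE replicate 1, 2 or 3, 4, 3 and 5 without t-rRPE replicate 1, 2 or 3, and 5, 6 and 7 without rRPE replicate 1, 2 or 3 (limma adjusted p 0.0508 to 0.275), and 4 were lost without the trend (0.0657 to 0.127). *CD248* was also not called with the injured libraries as 1 group (adjusted p = 0.0533), nor *CD34* with an offset of 0.5 (0.0508).

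A small set of genes had reads in all 3 intact libraries and none, or nearly none, after injury. *FGF8*, a fibroblast growth factor ligand, stood at 212, 119.7 and 70.7 in RPE and at 0 in all 6 injured libraries, at least 41.9-fold lower as the RPE mean over 3 reads per injured library (adjusted p = 0.01). *MYO18B*, an unconventional myosin, stood at 154, 50.1 and 62.2 and at 0 after injury, at least 27.7-fold lower (adjusted p = 0.014). *DUOX2*, which produces hydrogen peroxide, stood at 57.7, 154 and 35.3 and at 0, at least 25.7-fold lower (adjusted p = 0.0183), and *ALC* at 75.9, 66.5 and 78.4 and at 0, at least 23-fold lower (adjusted p = 0.0138). *INKA2*, an inhibitor of the kinase PAK4, fell from 205, 306 and 184 to 0, 4.67 and 0 across t-rRPE and 5.08, 0 and 0 across rRPE (-6.97, SE 1.17, adjusted p = 0.0187).

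In *FGF8*, *MYO18B*, *DUOX2* and *ALC* both injured groups stood at 0, and their closeness carries no weight. Of the 5 calls, the number lost was 1 without any 1 RPE library, 0, 0 and 1 without t-rRPE replicate 1, 2 or 3, and 0, 1 and 1 without rRPE replicate 1, 2 or 3 (limma adjusted p 0.0607 to 0.111). The lost call was that of *INKA2*, and edgeR called none of these 5 genes (adjusted p 0.0573 to 0.0933). Of 18 FGF ligands and receptors tested, *FGF8* and the receptor gene *FGFR3* were called lower, and *FGFR3* did not move alike. Over all genes tested, 0.302% were called lower.

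**Figure D4:**
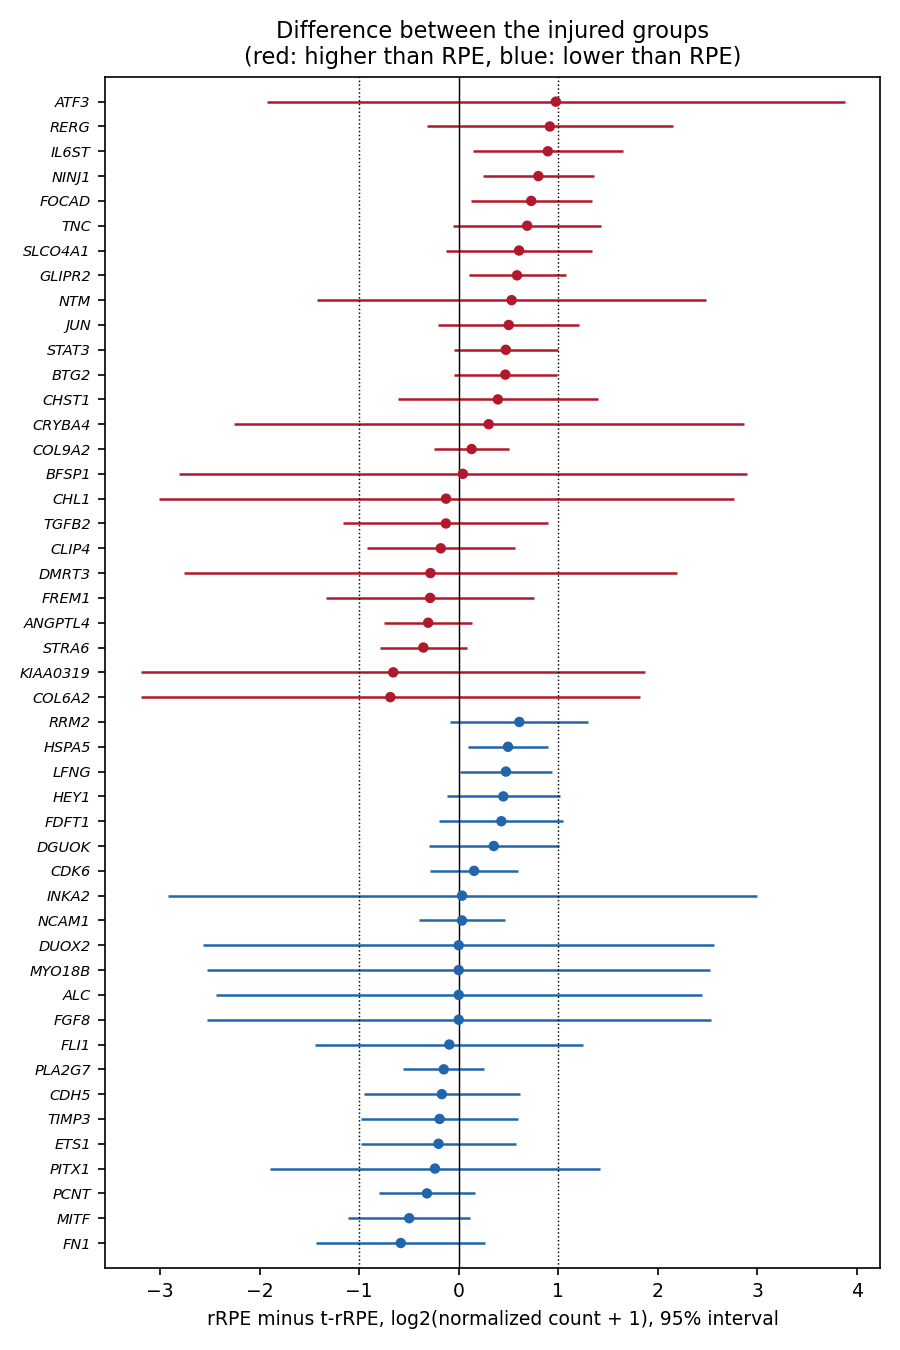
Difference of rRPE from t-rRPE on the log2(normalized count + 1) scale (x axis) with its 95% interval for named genes that moved alike. Red genes were higher and blue genes lower than RPE, and the dotted lines mark a difference of 1. Abundant genes such as *COL9A2* (-0.25 to 0.51) and *PLA2G7* (-0.56 to 0.26) have narrow intervals, whereas genes near 0 in one group, such as *BFSP1* (-2.81 to 2.89), have wide ones.

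The remaining genes that moved alike were 21 higher and 3 lower genes with a symbol and 12 higher and 6 lower genes without one. The 21 had log2 fold changes of 1.28 to 6.20 (median 2.00, adjusted p 0.0138 to 0.0485), with no overlap of injured and intact libraries in 20. They included *RCAN1*, an inhibitor of calcineurin, *CD47*, the surface signal that restrains phagocytosis, *PIEZO2*, a mechanically gated channel, *NEDD9*, a docking protein of focal adhesions, *PAPSS2*, which makes the sulfate donor that sulfotransferases such as *CHST1* use, and *GRIFIN*, a galectin-related lens protein that was at 0 in RPE. *ARRDC3* and the mismatch repair gene *MSH3*, also in this set, matched chromosome Z. These genes were named after their values were seen. The 3 lower genes were *FAM124A*, *DIPK2B* and *TNFRSF25*, a death domain receptor, with falls of 3.16 to 5.32 log2 units.

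Among the genes without a symbol, ENSGALG00000046160 was at 0 in RPE, 234, 492 and 149 across t-rRPE and 229, 156 and 315 across rRPE, and ENSGALG00000053402 was at 0 in RPE, 408, 105 and 573 across t-rRPE and 147, 382 and 379 across rRPE (adjusted p = 0.00296 and 0.00296). On the lower side ENSGALG00000049992 stood at 3678, 2944 and 2344 across RPE, 615, 815 and 713 across t-rRPE and 568, 660.1 and 377 across rRPE (adjusted p = 0.00296) and ENSGALG00000033498 at 6100.3, 7639 and 7804 across RPE, 1761, 2812 and 1972 across t-rRPE and 2513, 3497 and 3396 across rRPE (adjusted p = 0.00595). None of the 28 called identifiers without a symbol could be matched to a RefSeq gene.

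The called genes that did not move alike numbered 54, 38 higher and 16 lower than RPE. In 12 and 7 of these 1 injured group lay under 1 log2 unit from RPE. Of those 38, 26 stood higher in rRPE and 12 in t-rRPE. Of the 16 lower genes, 12 had the larger fall in t-rRPE and 4 in rRPE. The contrast of rRPE against t-rRPE called 9 genes in all (0.0544% of those tested), and 1 of them was among the 147, *TSC22D1*, a leucine zipper factor induced by TGF-beta in mammals. It stood at 4192, 3808 and 2866 across RPE, 6420.5, 3378 and 7169 across t-rRPE and 17230.3, 18626 and 21771 across rRPE, and rRPE differed from t-rRPE by 1.83 (95% interval 1.25 to 2.41) (limma, adjusted p = 0.0436). For injured against intact RPE its log2 fold change was 1.50, SE 0.23, adjusted p = 0.0123.

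Besides *TSC22D1*, no called gene passed the test of the difference between the injured groups, although 48 of the 147 had an unadjusted p of at most 0.05, so the values of the others are given as a description. *CXCL14*, a chemokine, was at 0 in RPE, 129, 68.1 and 511 across t-rRPE and 3654, 1838 and 4502 across rRPE. *FOS*, the AP-1 partner of JUN, stood at 15.4, 53.2 and 50.7 across RPE, 122, 117 and 276 across t-rRPE and 423, 1198 and 1158 across rRPE. *PTPRO*, a receptor phosphatase, stood at 84.6, 21.1 and 49.2 across RPE, 49.9, 231 and 435 across t-rRPE and 972, 3873 and 2310.0 across rRPE. On the lower side *SERPINE3*, of the serpin family, stood at 7376, 21363 and 20074 across RPE, 2656, 1942 and 1532 across t-rRPE and 398, 212 and 989 across rRPE. *FGFR3*, an FGF receptor gene, stood at 12452, 17719 and 16780.2 across RPE, 10226, 9462 and 7643 across t-rRPE and 3634, 4350.3 and 5896 across rRPE. In both genes the rRPE libraries were the lowest. *HMOX1* (heme oxygenase) stood at 3355, 4130.5 and 4326 across RPE, 643, 1135 and 573 across t-rRPE and 1268, 2310.4 and 1797 across rRPE, and *EDNRA*, an endothelin receptor gene, at 1329, 2002 and 2051 across RPE, 39.1, 376 and 95.1 across t-rRPE and 481, 428 and 727 across rRPE, with the lowest values in t-rRPE. Among called list members that did not move alike, *CXCR4*, a chemokine receptor gene, had log2 fold changes of 2.44 in t-rRPE and 4.16 in rRPE. *NMU*, which encodes a neuropeptide, had 7.34 and 9.44 in the same order, and *TIMP2*, a metalloproteinase inhibitor, 0.73 and 1.32. The actin-associated *EZR* and *TAGLN* lay farther from RPE in rRPE as well, with 2.96 and 2.98 there against 0.75 and 1.76 in t-rRPE. *SNAI1*, a repressor of epithelial genes, and *KK34* had -2.58 and -7.43 in t-rRPE against -1.10 and -5.82 in rRPE. For the 15 genes of the text that lay farther from RPE in rRPE, the number lost was 8, 12 and 10 without RPE replicate 1, 2 or 3, 6, 7 and 10 without t-rRPE replicate 1, 2 or 3, and 9, 10 and 8 without rRPE replicate 1, 2 or 3 (limma adjusted p 0.0304 to 0.27, where those under 0.05 fell short of a log2 fold change of 1), and 10 were lost without the trend (0.0731 to 0.21). For the 11 that lay farther in t-rRPE, the number lost was 9, 9 and 8 without RPE replicate 1, 2 or 3, 6, 6 and 9 without t-rRPE replicate 1, 2 or 3, and 9, 7 and 7 without rRPE replicate 1, 2 or 3 (limma adjusted p 0.0501 to 0.287), and 8 were lost without the trend (0.0623 to 0.205). Of the 15 and the 11, 7 and 5 were not called in edgeR (adjusted p 0.0552 to 0.221), and 7 and 6 with the injured libraries as 1 group (0.0733 to 0.27).

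**Figure D5:**
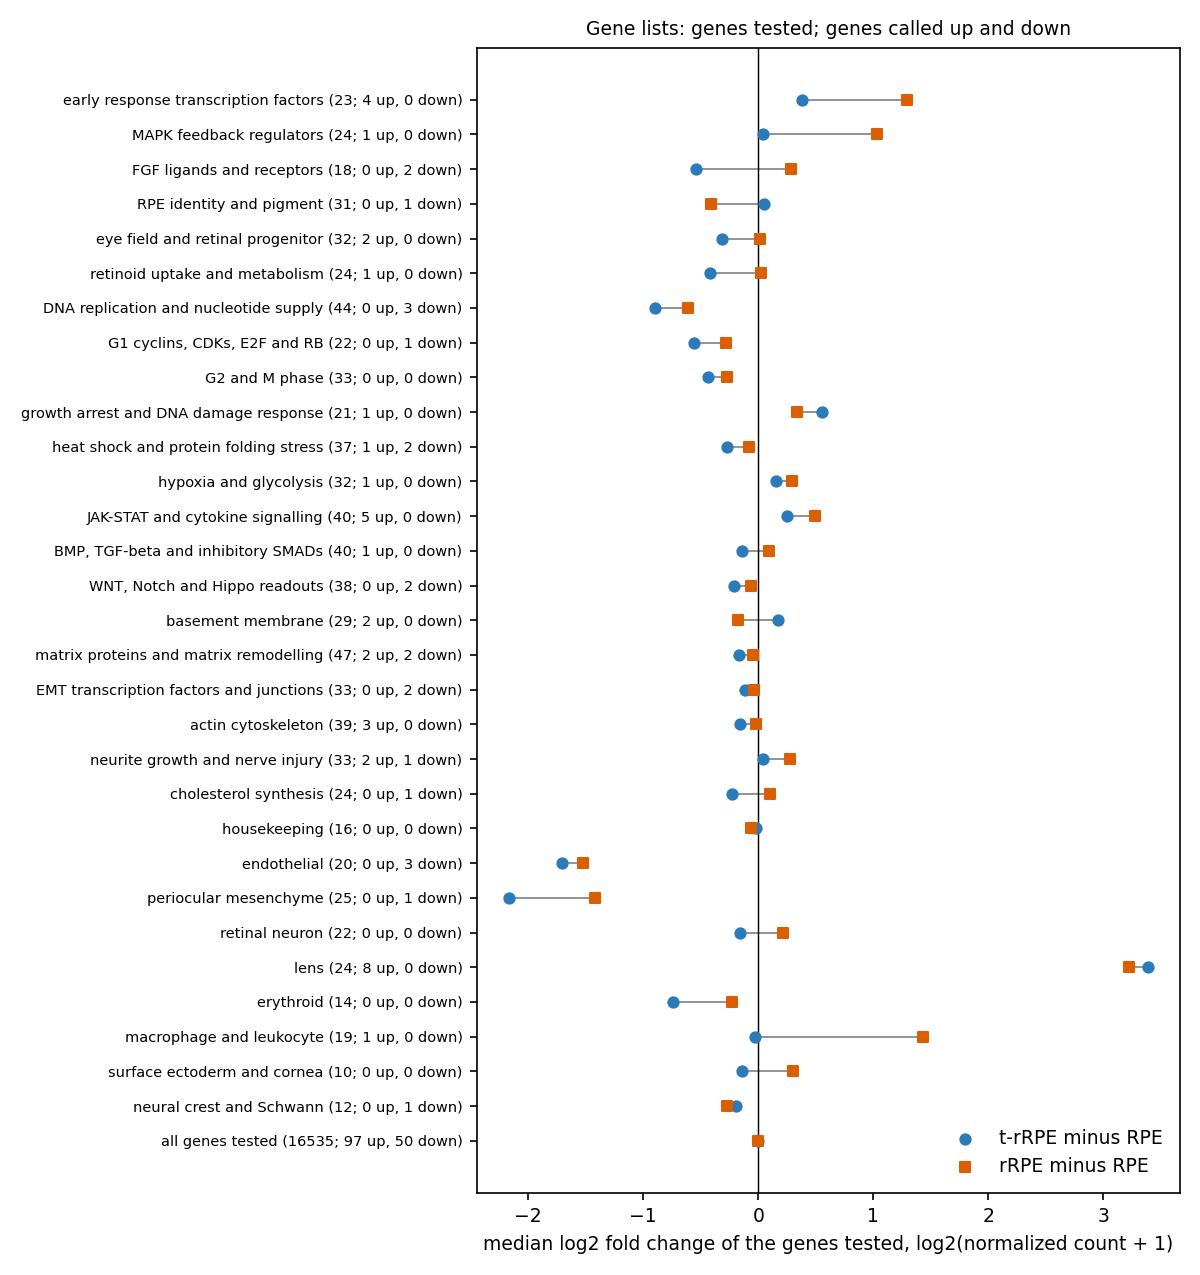
Median log2 fold change of each gene list in t-rRPE (circles) and rRPE (squares) against RPE, with the genes tested and the numbers called higher and lower for the pooled injured libraries in parentheses. Endothelial, mesenchymal and DNA replication lists lie below 0 and the lens list above 3 in both injured groups, and all genes tested lie at 0.

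The other lists held few called genes, where 0.587% of all genes tested were called higher and 0.302% lower. Of 24 retinoid genes *STRA6* was called, with 9 positive and 15 negative. Of 40 BMP and TGF-beta genes *TGFB2* was called, with a median of -0.12, and of 33 EMT genes (epithelial to mesenchymal transition) *ETS1* and *SNAI1* were called lower, with a median of 0.05. The actin list of 39 genes had 3 called higher, none alike, and the neurite list of 33 had *KIAA0319* and *NMU* higher and *NCAM1* lower. No housekeeping gene of 16 was called by limma, with 1 higher and 1 lower at an unadjusted p of 0.05, led by *GUSB* and *RPS13*, none by edgeR or DESeq2, and the list median was -0.07. Markers of retinal neurons (22 tested, median -0.03) and of surface ectoderm and cornea (10 tested, median 0.20) had no gene called by limma or edgeR, with 5 and 1 at an unadjusted p of 0.05 and 1 in each called by DESeq2 (*NEFM* and *KRT24*, both lower). Macrophage and leukocyte markers had 1 of 19 (*CXCR4*, higher), and neural crest markers 1 of 12 (*ETS1*, lower). Summed macrophage and leukocyte markers were 1950 to 3330 in RPE, 2763 to 5315 in t-rRPE and 6618 to 7867 in rRPE, but without *CXCR4* they overlapped, at 1801 to 3073, 2008 to 3692 and 2216 to 3730. The median log2 fold change of these markers was -0.03 in t-rRPE and 1.43 in rRPE, with 12 positive and 7 negative for injured against intact RPE. DESeq2 also called *C1QC* higher (adjusted p = 0.0247), which was at 0 in RPE. This gene stood at 22.8, 0 and 0 across t-rRPE and 20.3, 213 and 104 across rRPE, so the injured groups were not alike.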

How the data were processed

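RNA-seq libraries were made from laser-captured RPE with a poly(A) cDNA kit that does not mark strand, so overlapping and antisense genes cannot be separated. The authors trimmed reads with Trim Galore 0.6.1 and Cutadapt 1.18, aligned them with STAR 2.7.3 to GRCg6a with Ensembl annotation and counted genes with StringTie 2.0.4. The deposited signal is gene counts divided by 1 DESeq2 1.22.2 size factor per library. All values were whole multiples of 1 step per library (tolerance 0.01 reads), which gave back reads. Recovered reads on genes ran from 26167206 to 45563924 per library.

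Genes with a summed value of at least 20 were tested, and 100 fell short. The lowest kept genes summed to 20.03 to 20.18, and *NPFFR2* and *SH3RF2* lay just outside at 19.98. limma 3.58.1 (R 4.3.3, trend) was fitted to log2(value + 1) with 3 group means over all 9 libraries, with Benjamini-Hochberg adjustment over all genes tested. A call needed an adjusted p no higher than 0.05 and a change of 1 log2 unit or more. Fold bounds used 3 reads per library. The test was checked on simulated data. Each library is 1 embryo by the study's description.

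The genes named in the text were those moving alike, with a symbol, a mean of at least 10 and no overlap (the 15 with the smallest p and the 5 with the largest change in each direction), called members of the gene lists or the 2 with the smallest p where none was called, genes called between rRPE and t-rRPE, the 3 in each direction farthest apart between these groups, checks and markers. Others are said to be named after their values were seen. Members and lists were chosen with earlier results of these data known. Alternatives were the offset, the filter, the scaling, the trend, a 1-group model, a replicate block, each library left out, edgeR 4.0.16 and DESeq2 1.42.0 on recovered reads, and the limit for moving alike. After the values were seen, the level of *HINTW* as a covariate and a count without genes matched to Z or W were added, with chromosomes taken by symbol from RefSeq (assembly GRCg7b). A promoter motif search was planned and not run. A few genes that the rule names are not reported here.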

Additional observations from a re-analysis of the deposited data

Results flagged for a closer look

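*TSC22D1* was singled out because its change differed between the injured groups in a direct test. Its level in rRPE was 1.83 higher than in t-rRPE on the log2 scale (95% interval 1.25 to 2.41, limma, adjusted p = 0.0436). All 3 rRPE libraries, at 17230.3, 18626 and 21771 normalized counts, stood above all 3 t-rRPE libraries, at 6420.5, 3378 and 7169. The difference was not called in any fit that left out 1 library, nor in edgeR.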

How the results depend on the processing

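For the called genes (97 higher, 50 lower, of which 59 and 34 alike, and 1 differing between rRPE and t-rRPE), DESeq2 on recovered reads gave 389 higher and 211 lower genes, 214 and 86 alike, and 92 differing. edgeR gave 48 higher, 27 of them alike, and 0 differing. A limma fit without the trend gave 50 higher and 33 lower, 25 higher alike, and 16 differing. With the *HINTW* level as a covariate, chosen after seeing the data, there were 18 higher genes, 11 of them alike, and 0 differing. A model with the injured libraries as 1 group has no term for the difference between them and gives no value for it. With a difference limit of 0.5, 30 higher genes moved alike. Leaving out 1 library gave 23 to 84 higher and 11 to 78 lower genes, 11 to 55 and 11 to 65 alike, and 0 differing. Other offsets, filters and scalings kept each count within 1.5 times.

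Replicate numbers did not pair the libraries, since same-numbered libraries correlated at -0.031 to 0.06 in their deviations from group means. With the number as a replicate block, 85 higher and 46 lower genes were called, 116 of the 147 among them, and 0 differed. *SDHA* ran from -0.31 to 0.066 with 1 library left out, changed sign without RPE replicate 3, and was not called. Of 738 leave-one-out values of the 82 named genes 404 lost a call, and of 1066 values in other settings 181 did. Both totals include genes not called in the full fit, such as *GAPDH* and *SDHA*, which had no call to lose. With 3 embryos a group, changes near the threshold were not detectable with certainty.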
